A study of Mus musculus with 6 samples.

Results

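The genes described here are 10 genes that make or break down prostaglandins: *Pla2g4a*, *Ptgs1*, *Ptgs2*, *Ptgis*, *Ptges*, *Ptges2*, *Ptges3*, *Hpgd*, *Ptgr1* and *Ptgr2*. They were taken as a list of symbols, mapped through the GENCODE M21 annotation to the Ensembl identifiers of the deposited values, and all 10 were present among the 14548 genes. The rule by which they were found uses no measured value, but the list was drawn up with earlier results of these data known. RNA was sequenced from C2C12 cells, mouse myoblasts kept as a line, which can fuse into skeletal muscle fibres. There were 3 libraries of wild-type cells (WT) and 3 of a line in which CRISPR/Cas9 had been aimed at exon 3 of *Mstn*, the gene of myostatin (MSTN-KO). The cells were grown in medium with fetal bovine serum. The labels call all 6 samples skeletal muscle myoblasts of strain C11. C11 is also the study's name for its MSTN-KO line, so the genotype in the labels was used for the grouping. All MSTN-KO libraries come from the same edited line, so the loss of *Mstn* and other differences of this line cannot be told apart. Nothing in the labels says that replicates were separate cultures, so every p-value below measures only the spread between these libraries.

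Prostaglandins are short-lived lipid signals made from arachidonic acid. Phospholipase A2 frees the acid from membranes, the cyclooxygenases turn it into prostaglandin H2, and terminal synthases turn this shared intermediate into single products such as prostacyclin and prostaglandin E2. Breakdown starts with the oxidation of the 15-hydroxyl group, followed by the reduction of a carbon double bond. In skeletal muscle, prostaglandins are known to act on the proliferation, fusion and growth of myoblasts.

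At the level of RNA, the cells labelled MSTN-KO had almost no transcript of the prostacyclin synthase *Ptgis* and had gained transcript of the breakdown enzyme *Hpgd*. *Ptgis* was 88.2-fold lower in the group means and *Hpgd* 48.9-fold higher. The lower mean of each was under 1 FPKM, the unit described below, where the error is unknown, so both ratios are imprecise. The cytosolic phospholipase *Pla2g4a* and the cyclooxygenase *Ptgs1* fell by less, and both of these calls were lost under several of the other processing settings. *Ptgs2*, *Ptges2*, *Ptges3*, *Ptgr1* and *Ptgr2* did not pass the test. *Ptges* was below the level set for the test across genes.

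The upstream sequences of *Hpgd*, *Pla2g4a* and *Ptgs1* are shown because these genes passed the test and have an entry in the promoter table used, which is from RefSeq on GRCm38.p6. For each gene they are the 250 bases before its first listed start site, written 5′ to 3′ on the strand of the gene. Capitals mark letters of 3 motifs searched on both strands. These are the E-box (CANNTG, which reads the same on both strands and is bound by MyoD and myogenin), the GC box (GGGCGG or its reverse complement CCGCCC, bound by Sp1) and the TATA box (TATAAA or its reverse complement TTTATA).
*Hpgd*, chr8:56294302-56294551, plus strand: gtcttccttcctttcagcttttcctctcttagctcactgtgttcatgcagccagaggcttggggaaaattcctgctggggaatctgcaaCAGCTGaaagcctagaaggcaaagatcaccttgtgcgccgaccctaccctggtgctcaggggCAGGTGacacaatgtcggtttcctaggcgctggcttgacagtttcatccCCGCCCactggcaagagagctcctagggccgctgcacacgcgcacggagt
*Pla2g4a*, chr1:149961291-149961540, minus strand: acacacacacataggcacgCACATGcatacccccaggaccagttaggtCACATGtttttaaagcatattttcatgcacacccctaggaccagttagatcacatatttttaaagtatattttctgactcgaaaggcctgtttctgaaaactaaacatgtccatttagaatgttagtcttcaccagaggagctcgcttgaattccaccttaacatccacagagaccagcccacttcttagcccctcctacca
*Ptgs1*, chr2:36230176-36230425, plus strand: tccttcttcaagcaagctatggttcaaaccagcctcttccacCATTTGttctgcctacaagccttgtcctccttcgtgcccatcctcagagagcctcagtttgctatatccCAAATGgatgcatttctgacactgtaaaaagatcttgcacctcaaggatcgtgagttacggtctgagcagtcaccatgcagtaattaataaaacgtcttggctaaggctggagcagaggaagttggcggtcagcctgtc

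Each of these windows held 2 E-boxes, whose first bases lay 161 and 99 bases before the start in *Hpgd*, 231 and 202 in *Pla2g4a*, and 208 and 139 in *Ptgs1*. The *Hpgd* window also held 1 GC box, 50 bases before its start. None of the 3 windows held a TATA box. Of the 10 genes, 9 matched the promoter table, and *Ptgis* has no entry. An E-box was found for 7 of the 9, a GC box for 5 and a TATA box for 1, which was at a second listed start site of *Pla2g4a*. Among all 32851 promoters of the table, 66.2% held an E-box, 32.7% a GC box and 12.4% a TATA box in the same 250 bases. The share of G and C was 56.8% in *Hpgd*, 48% in *Ptgs1* and 43.2% in *Pla2g4a*, against a median of 52.4% over all promoters. The *Hpgd* window had 9 CG pairs, *Ptgs1* had 5 and *Pla2g4a* had 3, and the median was 6. A match is a string of letters and was not tested as a binding site.

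The values are FPKM, in which the fragments on a gene are divided by its exon length and by the mapped fragments of its library, so levels of different genes can be compared. The sums of FPKM per library ranged from 723705 to 764524 in WT and from 856314 to 999579 in MSTN-KO. How many fragments each library held is unknown. The smallest steps of low values put the depth of the other 5 libraries between 0.861 and 1.09 times that of WT replicate 1. Across genes, Spearman correlations were between 0.985 and 0.990 within groups and between 0.970 and 0.977 across them. *Mstn* itself lay between 0 and 0.0586 FPKM in all 6 libraries, with no difference between the groups (two-sided exact permutation test, p = 0.3, where 3 against 3 libraries cannot give less than 0.1), so it does not check the labels.

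The groups were compared on log2(FPKM + 1) with limma over the 10837 genes that reached 1 FPKM in 1 or more libraries. A gene was called at a Benjamini-Hochberg adjusted p under 0.05 over all of them. A fold change on this scale understates the change of genes at low FPKM. By this test 952 genes (8.78%) were higher and 971 genes (8.96%) were lower in MSTN-KO cells. Of the 10 prostaglandin genes, 9 passed the filter. *Hpgd* was higher, and *Ptgis*, *Pla2g4a* and *Ptgs1* were lower. *Hpgd* passed the filter only through the MSTN-KO libraries and *Ptgis* only through the WT libraries. Each was thus tested because of the group in which it was high. The median log2 fold change of the 9 was -0.15, beside -0.00078 over all tested genes. When DEGs were instead taken at an unadjusted p under 0.05 with a log2 change of more than 1 in either direction, 1.21% of tested genes were upregulated and 2.3% downregulated, and *Hpgd* and *Ptgis* were the 2 members among them.

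**Figure D1:**
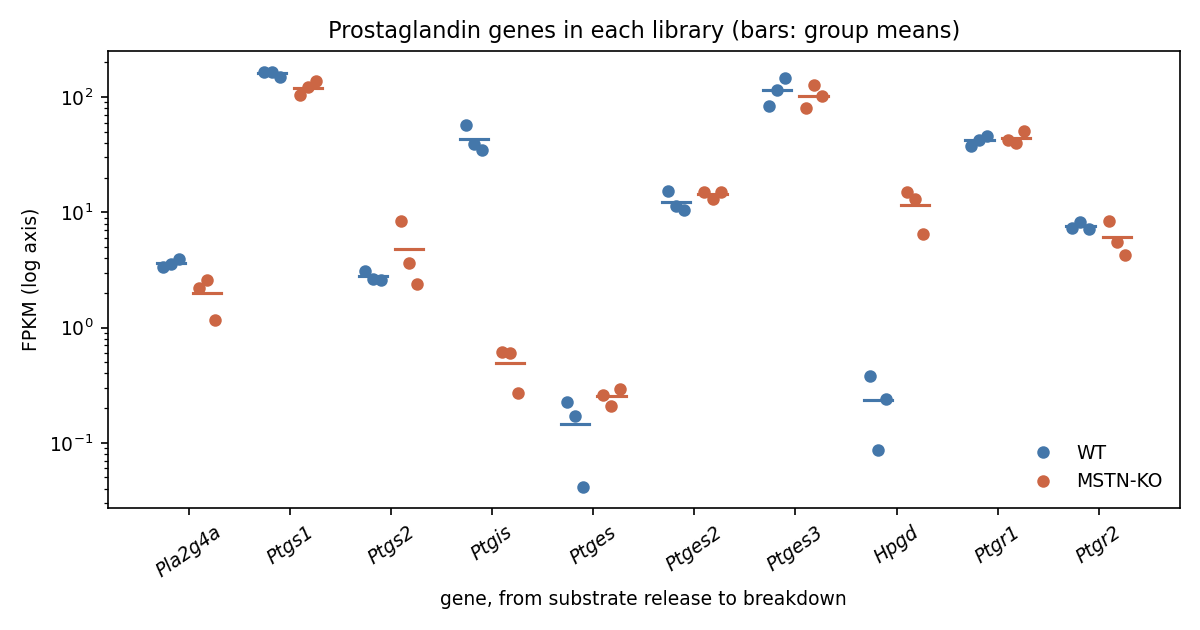
FPKM of the 10 prostaglandin genes in each library on a log axis, with genes ordered from substrate release to breakdown, points for the 3 WT (blue) and 3 MSTN-KO (red) libraries in the order of their replicate numbers, and bars for the group means. *Ptgis* drops from a mean of 43.5 to 0.494 FPKM and *Hpgd* climbs from 0.236 to 11.5 FPKM, while the 2 groups of *Ptges2*, *Ptges3*, *Ptgr1*, *Ptgr2*, *Ptgs2* and *Ptges* overlap.

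The supply of the substrate starts with *Pla2g4a* (ENSMUSG00000056220, chromosome 1 of GRCm38, 149829618 to 149961290, minus strand), which encodes cytosolic phospholipase A2 alpha, the enzyme that prefers arachidonic acid. WT replicates 1, 2 and 3 read 3.38, 3.58 and 3.96 FPKM, and the MSTN-KO replicates read 2.22, 2.59 and 1.17 FPKM. The MSTN-KO libraries all lay below the lowest WT library, as for 18.1% of all tested genes. The mean fell from 3.64 ± 0.295 to 1.99 ± 0.736 FPKM (SD, n = 3 per group). On the log2 scale the change was -0.66 (95% interval -1.08 to -0.24, SE 0.19, limma adjusted p = 0.0325). The call held under 8 of 14 alternative settings. It was lost without WT replicate 1, 2 or 3 (limma adjusted p = 0.0723, 0.0872 and 0.0892) and without MSTN-KO replicate 3, the lowest library, where the change was -0.45 (limma adjusted p = 0.0849). It was also lost under quantile normalization (limma adjusted p = 0.0581) and with no filter on low values (limma adjusted p = 0.0818).

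*Ptgs1* (ENSMUSG00000047250, chromosome 2, 36230426 to 36252272, plus strand) encodes cyclooxygenase 1, the form present in most tissues at rest. It had the highest mean of the 10 genes in both groups. The WT libraries read 166, 167 and 149 FPKM and the MSTN-KO libraries 104, 122 and 138 FPKM. The MSTN-KO libraries all lay below the WT libraries, as for 18.1% of all tested genes. The mean fell from 161 ± 9.78 to 121 ± 17.3 FPKM (SD, n = 3 per group). The log2 change was -0.41 (95% interval -0.70 to -0.12, SE 0.13), with a limma adjusted p of 0.0486, just under the threshold. Only 6 of the 14 alternatives kept this call. It was lost on leaving out any library other than MSTN-KO replicate 3 (limma adjusted p from 0.0571 to 0.238, with the smallest change, -0.30, without MSTN-KO replicate 1). With no filter, without a trend and with a replicate block, the limma adjusted p was 0.0709, 0.0759 and 0.0532.

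*Ptgs2* (ENSMUSG00000032487, chromosome 1, 150100031 to 150108227, plus strand) encodes cyclooxygenase 2, the inducible form. Its FPKM was 3.09, 2.66 and 2.58 in the WT libraries and 8.43, 3.65 and 2.38 in the MSTN-KO libraries. MSTN-KO replicate 1 stood above the rest and replicate 3 lay below all WT libraries. The log2 change of 0.49 (95% interval -0.13 to 1.10) did not pass (limma adjusted p = 0.252), and without MSTN-KO replicate 1 it was 0.07 (limma adjusted p = 0.850). *Ptgs2* and *Pla2g4a* lie 138741 bases apart, with no other tested gene between them. The 627 tested genes of chromosome 1 had a median log2 fold change of -0.25, and its part in the values of *Pla2g4a* was not tested.

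*Ptgs2* made up 1.83, 1.57 and 1.70% of the summed FPKM of both cyclooxygenases in WT replicates 1, 2 and 3. In the MSTN-KO replicates the share was 7.52, 2.91 and 1.70%. The log2 ratio of *Ptgs2* to *Ptgs1* was -5.42 ± 0.0882 in WT and -4.52 ± 0.961 in MSTN-KO cells (SD, n = 3 per group). The difference of 0.90 was not larger than the spread of the MSTN-KO libraries (two-sided exact permutation test, p = 0.2, adjusted over 3 ratios 0.2), and leaving out MSTN-KO replicate 1 brought it to 0.376.

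Among the terminal synthases, *Ptgis* (ENSMUSG00000017969, chromosome 2, 167191805 to 167240604, minus strand) encodes prostacyclin synthase. Prostacyclin relaxes vessels and restrains platelets, and its synthase is best known from endothelial and smooth muscle cells. WT replicates 1, 2 and 3 had 57.1, 39.1 and 34.5 FPKM of *Ptgis*, and the MSTN-KO replicates had 0.614, 0.596 and 0.271 FPKM. The lowest WT library was far above the highest MSTN-KO library. The mean fell from 43.5 ± 11.9 to 0.494 ± 0.193 FPKM (SD, n = 3 per group). With the pseudocount of 1, the log2 fold change was -4.87 (95% interval -5.29 to -4.46, SE 0.19, limma adjusted p = 3.63e-09). It ranked 2 from the lowest of the 10837 tested genes. All 14 alternatives kept the call, with log2 fold changes from -5.02 to -4.67 on leaving out single libraries and -6.23 with a pseudocount of 0.1. In bulk RNA, fewer cells that express a gene and less RNA of it per cell cannot be told apart.

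The tested genes whose pattern over the 6 libraries was closest to *Ptgis* were *Gzmd*, *Mcpt8* and *Slc16a3*. Likeness was the root mean square difference of log2(FPKM + 1) after subtracting each gene's WT mean, and it was 0.40, 0.58 and 0.60. The granzyme *Gzmd* and the protease *Mcpt8*, both from multigene families on chromosome 14 that may share reads, had log2 fold changes of -5.03 and -4.24. *Slc16a3*, a lactate carrier on chromosome 11, had -4.06. Of the tested genes next to *Ptgis*, *Zfas1*, 125943 bases away, was higher at 0.70 (limma adjusted p = 0.0163), and *B4galt5*, 57840 bases away on the other side, had -0.36 (limma adjusted p = 0.0799). These neighbours, those of *Pla2g4a* above and those of *Hpgd* below were chosen after their values had been seen.

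The synthases of prostaglandin E2 are *Ptges*, the inducible membrane enzyme, *Ptges2*, a second membrane-associated enzyme, and *Ptges3*, the cytosolic enzyme, which is also the HSP90 co-chaperone p23. *Ptges* (ENSMUSG00000050737, chromosome 2, 30889471 to 30929863, minus strand) was near 0 throughout, at 0.225, 0.172 and 0.0410 FPKM in WT and 0.259, 0.210 and 0.295 FPKM in MSTN-KO libraries. It failed the filter, the groups overlapped, and the difference of 0.13 on the log2 scale had p = 0.2 in a two-sided exact permutation test. With no filter on low values *Ptges* was not called (limma adjusted p = 0.239).

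*Ptges2* (ENSMUSG00000026820, chromosome 2, 32395896 to 32405772, plus strand) read 15.3, 11.3 and 10.5 FPKM in WT and 14.9, 13.0 and 15.03 FPKM in MSTN-KO libraries. Its log2 change of 0.21 (95% interval -0.13 to 0.55) did not pass (limma adjusted p = 0.378) and turned negative when every library was scaled to the same sum. *Ptges3* (ENSMUSG00000071072, chromosome 10, 128058954 to 128077272, plus strand) varied widely within groups, from 83.4 to 146 FPKM in WT and from 80.4 to 127 FPKM in MSTN-KO libraries. Its log2 change was -0.15 (95% interval -0.58 to 0.29, limma adjusted p = 0.647), and its sign turned without WT replicate 3 or MSTN-KO replicate 1. *Ptges3* has an annotated pseudogene, so its reads may be shared with that copy.

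In the summed FPKM of these 4 synthases, *Ptgis* took 36.6, 23.5 and 18.02% in the WT libraries and 0.639, 0.425 and 0.231% in the MSTN-KO libraries. The log2 ratio of *Ptgis* to *Ptges* was 5.25 ± 0.272 in WT and 0.24 ± 0.235 in MSTN-KO cells (SD, n = 3 per group). The difference was -5.01 (two-sided exact permutation test, p = 0.1, the smallest that 3 against 3 libraries can give, adjusted over 3 ratios 0.15). Since *Ptges* was near 0 in every library, this ratio restates the change of *Ptgis* and adds no separate test.

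Breakdown starts with *Hpgd* (ENSMUSG00000031613, chromosome 8, 56294585 to 56321043, plus strand), which encodes 15-hydroxyprostaglandin dehydrogenase, the enzyme that inactivates prostaglandin E2 and others. In WT replicates 1, 2 and 3 it was at 0.383, 0.0860 and 0.238 FPKM, among the lowest of the 10 genes. The MSTN-KO replicates had 14.9, 13.1 and 6.55 FPKM. Every MSTN-KO library was above every WT library, as for 19.3% of all tested genes. The mean rose from 0.236 ± 0.149 to 11.5 ± 4.41 FPKM (SD, n = 3 per group). The log2 fold change was 3.28 (95% interval 2.75 to 3.80, SE 0.24, limma adjusted p = 1.33e-06), which ranked 7 from the highest of the 10837 genes. It was past the threshold in all 14 alternatives, between 3.07 and 3.61 on leaving out single libraries. Because *Hpgd* was so low in WT cells, its value depends on the pseudocount and was 5.14 at 0.1.

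Of the tested genes on either side of *Hpgd*, *Asb5*, 1706743 bases away, was lower at -0.54 (limma adjusted p = 0.0150), and *Cep44*, 210479 bases away, had 0.27 (limma adjusted p = 0.299).

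*Ptgr1* and *Ptgr2* encode reductases that act after *Hpgd* on the 15-keto products, *Ptgr1* also on leukotriene B4. *Ptgr1* (ENSMUSG00000028378, chromosome 4, 58965439 to 58987119, minus strand) read 38.0, 42.7 and 45.8 FPKM in WT and 42.1, 40.3 and 50.5 FPKM in MSTN-KO libraries, and the log2 change was 0.07 (95% interval -0.22 to 0.36, limma adjusted p = 0.755). *Ptgr2* (ENSMUSG00000072946, chromosome 12, 84285232 to 84315832, plus strand) read 7.25, 8.20 and 7.19 FPKM in WT and 8.39, 5.57 and 4.28 FPKM in MSTN-KO libraries, and the log2 change was -0.31 (95% interval -0.73 to 0.11, limma adjusted p = 0.284). The groups overlapped for both reductases, and the interval of *Ptgr2* reaches from a fall to a small rise.

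The log2 ratio of *Ptgs2* to *Hpgd*, a first step of synthesis against the first step of breakdown, was 1.57, 1.75 and 1.53 in WT and -0.76, -1.60 and -1.16 in MSTN-KO libraries. *Ptgs2* was the higher of the pair in every WT library and *Hpgd* in every MSTN-KO library. This reversal concerns only the lesser of the cyclooxygenases in FPKM. *Ptgs1*, at 104 FPKM or more in every library, stayed above *Hpgd*, which did not exceed 14.9 FPKM. The difference was -2.79 (two-sided exact permutation test, p = 0.1, the smallest possible, adjusted over 3 ratios 0.15). Since *Ptgs2* itself was not called, this ratio mostly restates the change of *Hpgd* and adds no separate test.

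**Figure D2:**
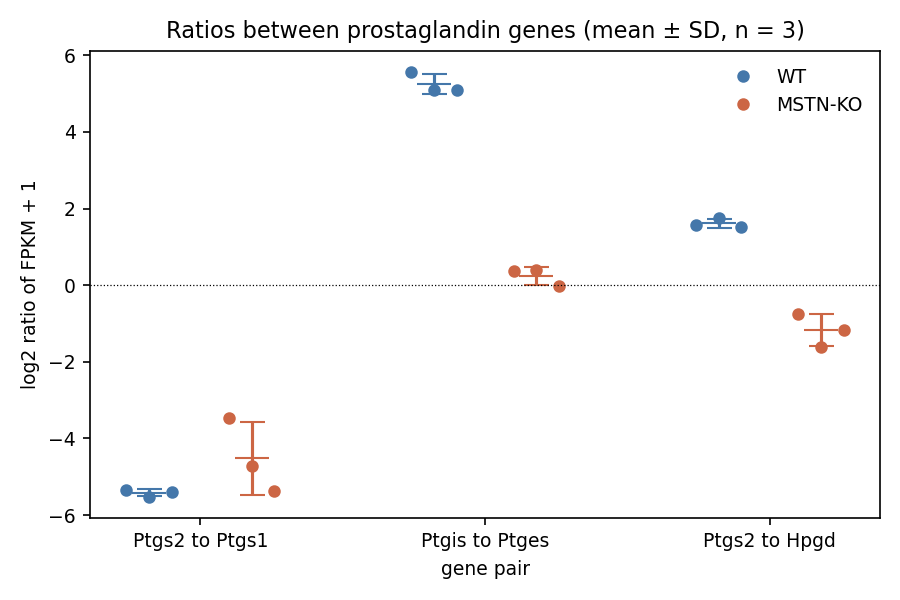
Log2 ratio of FPKM + 1 for 3 pairs of prostaglandin genes in each of the 3 WT (blue) and 3 MSTN-KO (red) libraries, with the mean and SD of each group. The *Ptgis* to *Ptges* and *Ptgs2* to *Hpgd* ratios are separate between the groups, and the *Ptgs2* to *Ptgs1* ratio of MSTN-KO replicate 3, at -5.36, lies among the WT values.

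The order of the levels differed between the groups for *Ptgis*, *Hpgd*, *Pla2g4a* and *Ptgs2*. In WT cells the mean FPKM fell from *Ptgs1* (161) through *Ptges3* (115), *Ptgis* (43.5), *Ptgr1* (42.2), *Ptges2* (12.4), *Ptgr2* (7.55), *Pla2g4a* (3.64), *Ptgs2* (2.78) and *Hpgd* (0.236) to *Ptges* (0.146). The libraries of neighbours in this order overlapped only for *Ptgis* with *Ptgr1* and for *Hpgd* with *Ptges*. In MSTN-KO cells *Ptgis* stood next to last and overlapped *Ptges*. *Hpgd* moved up between *Ptges2* (14.3) and *Ptgr2* (6.08). *Ptgs2* (4.82) stood above *Pla2g4a* (1.99), the reverse of their order in WT cells, though the libraries of the pair overlapped. In this group the run from *Ptges2* through *Hpgd*, *Ptgr2*, *Ptgs2* and *Pla2g4a* had no gap between neighbours, and *Ptgs1* overlapped *Ptges3*.

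**Figure D3:**
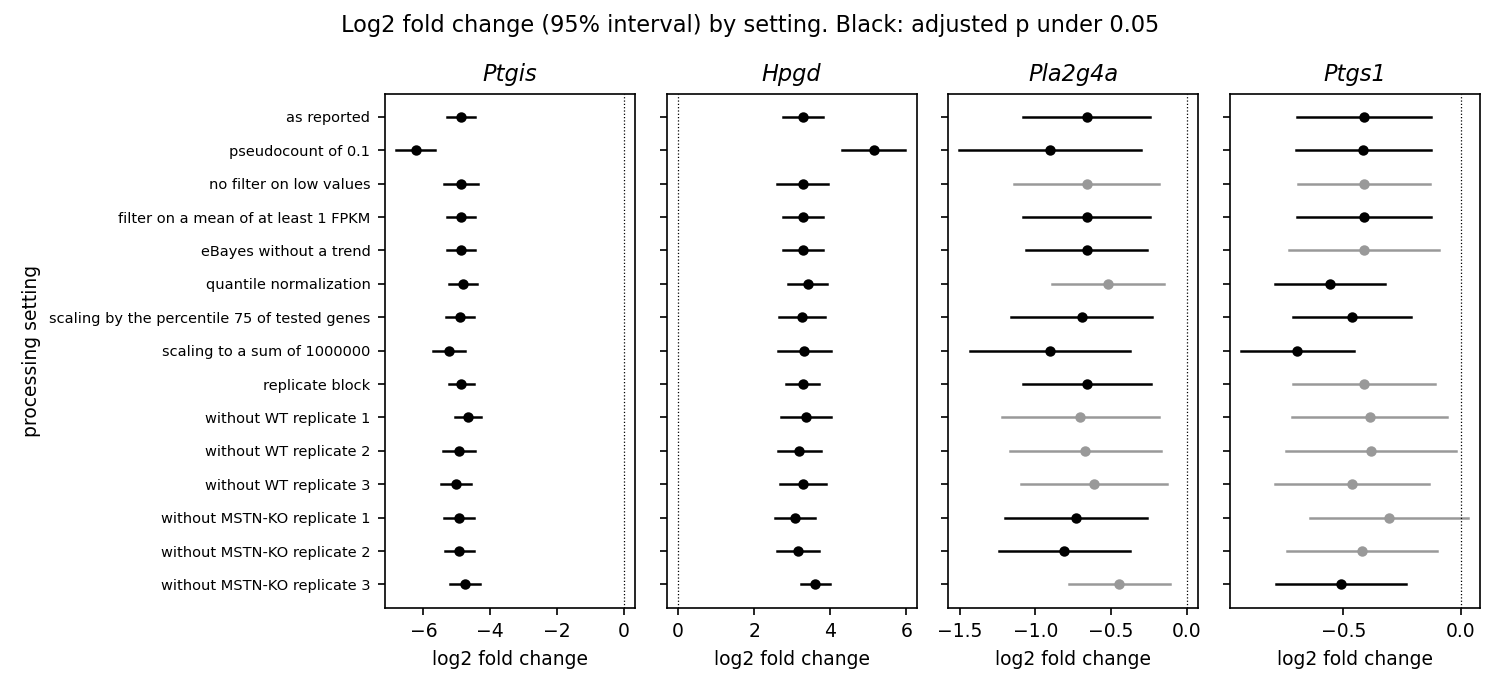
Log2 fold changes (MSTN-KO minus WT) with 95% intervals of *Ptgis*, *Hpgd*, *Pla2g4a* and *Ptgs1* as reported and under 14 alternative settings, each gene on its own axis, with settings past an adjusted p of 0.05 in black and the rest in grey. *Ptgis* and *Hpgd* are black in every line, and *Pla2g4a* is black in 8 and *Ptgs1* in 6 of the 14 alternatives.

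Markers of other states and cell types were read beside these genes. Of the markers of muscle differentiation, 10 of 10 tested genes were lower in MSTN-KO cells with a median log2 fold change of -3.34. Their summed FPKM was 346 to 1158 in the WT libraries, lowest in replicate 3, and 47.3 to 79.3 in the MSTN-KO libraries. *Myog*, which drives differentiation, was at 175, 148 and 47.3 FPKM in WT and 7.33, 10.2 and 11.6 FPKM in MSTN-KO libraries. Of 4 myoblast markers, *Myod1*, *Des* and *Itga7* were lower (log2 fold changes -0.58, -0.96 and -0.54) and *Myf5* had 0.08 (limma adjusted p = 0.783). The part of the differentiation markers in the changes of *Ptgis*, *Hpgd*, *Pla2g4a* and *Ptgs1* was not tested.

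None of 5 endothelial markers reached the filter, the highest value was 0.0996 FPKM, and their sums were 0.0717 to 0.183 in WT and 0.0817 to 0.168 in MSTN-KO libraries. Of 4 tested smooth muscle markers, *Tagln* and *Cnn1* were lower (log2 fold changes -1.33 and -1.04), *Acta2* was higher (0.46) and *Smtn* had 0.16 (limma adjusted p = 0.441). The summed level of this list was 1312 to 1373 FPKM in WT and 1463 to 1929 FPKM in MSTN-KO libraries. Most of this sum was *Acta2*, at 1115 to 1137 FPKM in WT and 1353 to 1798 FPKM in MSTN-KO libraries. The defining gene of the list, *Myh11*, did not exceed 0.0211 FPKM. Of the leukocyte markers, *Cd68* lay between 0.702 and 2.39 FPKM with no call and *Csf1r* did not exceed 0.0616 FPKM. Of the adipocyte markers, *Fabp4* lay between 0.147 and 0.324 FPKM in WT and between 0.919 and 1.76 FPKM in MSTN-KO libraries. It passed the filter only through the MSTN-KO libraries (limma adjusted p = 0.00924), and *Plin1* did not exceed 0.0639 FPKM.

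Other genes of the eicosanoid pathway were read from the same fit. Of 62 genes listed for the supply of arachidonic acid, other prostanoid synthases, transport and breakdown, receptors and the lipoxygenase arm, 49 were among the deposited genes and 25 passed the filter. *Pla2g6* and *Ltc4s* were higher and *Acsl4* and *Alox5* were lower, which is 2 of 25 in each direction beside 8.78 and 8.96% of all tested genes. The median log2 fold change of the 25 was 0.01. All MSTN-KO libraries lay above all WT libraries for 6 of the 25 and below them for 2, beside 19.3 and 18.1% of all tested genes. None of the 3 other prostanoid synthases tested and neither of the 2 genes of transport and breakdown passed.

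The supply list, with 11 tested genes, gave 1 call in each direction. *Pla2g6*, a calcium-independent phospholipase A2, read 14.6, 11.8 and 12.5 FPKM in WT and 19.2, 17.7 and 19.2 FPKM in MSTN-KO libraries (log2 fold change 0.50, limma adjusted p = 0.0219). It was opposite in direction to *Pla2g4a*, and its MSTN-KO libraries all lay above its WT libraries, as for 19.3% of all tested genes. *Acsl4*, which links arachidonic acid to coenzyme A, read 14.6, 12.0 and 16.2 FPKM in WT and 7.07, 12.7 and 4.79 FPKM in MSTN-KO libraries, with overlap between the groups (log2 fold change -0.81, limma adjusted p = 0.0381). The call of *Pla2g6* was kept without WT replicate 1 or MSTN-KO replicate 2 and lost without any other single library (limma adjusted p from 0.0525 to 0.127). Scaling every library to the same sum also ended it, with 0.24 on the log2 scale (limma adjusted p = 0.186). *Acsl4* was kept without WT replicate 2 or MSTN-KO replicate 2 and lost without any other (limma adjusted p from 0.0739 to 0.162). It was lost as well with no filter, under quantile normalization and under scaling by percentile 75 (limma adjusted p = 0.129, 0.0569 and 0.0621).

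Of 4 tested genes of the lipoxygenase arm, which makes leukotrienes from the same acid, 1 rose and 1 fell. *Alox5*, the 5-lipoxygenase, fell from 158, 131 and 135 FPKM in WT to 76.5, 106 and 104 FPKM in MSTN-KO libraries (log2 fold change -0.57, limma adjusted p = 0.0186). The MSTN-KO libraries all lay below the WT libraries, as for 18.1% of all tested genes. The call was lost without WT replicate 1 (limma adjusted p = 0.0721), without MSTN-KO replicate 1 (limma adjusted p = 0.109) and with no filter on low values (limma adjusted p = 0.0505). *Ltc4s*, leukotriene C4 synthase, read 1.71, 0.875 and 1.03 FPKM in WT and 4.54, 1.49 and 3.75 FPKM in MSTN-KO libraries (log2 fold change 0.89, limma adjusted p = 0.0336). Its groups overlapped, and the call was kept without MSTN-KO replicate 2 and lost without any other single library (limma adjusted p from 0.0541 to 0.144). With no filter, scaling by percentile 75 and scaling to the same sum, the limma adjusted p was 0.107, 0.0573 and 0.0870.

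None of the 5 tested receptor genes passed. The prostacyclin receptor *Ptgir*, the partner of the product of *Ptgis*, read 2.56, 1.73 and 2.22 FPKM in WT and 2.49, 2.48 and 2.94 FPKM in MSTN-KO libraries (log2 fold change 0.20, limma adjusted p = 0.419). The prostaglandin E2 receptors *Ptger1* and *Ptger4* had 0.01 (limma adjusted p = 0.965) and -0.12 (limma adjusted p = 0.584). *Ptgfrn*, a partner protein of the prostaglandin F2 alpha receptor, had 0.26 (limma adjusted p = 0.215). *Ppard*, a nuclear receptor that prostacyclin analogs can bind, had 0.36 (limma adjusted p = 0.0885). Its MSTN-KO libraries all lay above its WT libraries, as for 19.3% of all tested genes.

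**Figure D4:**
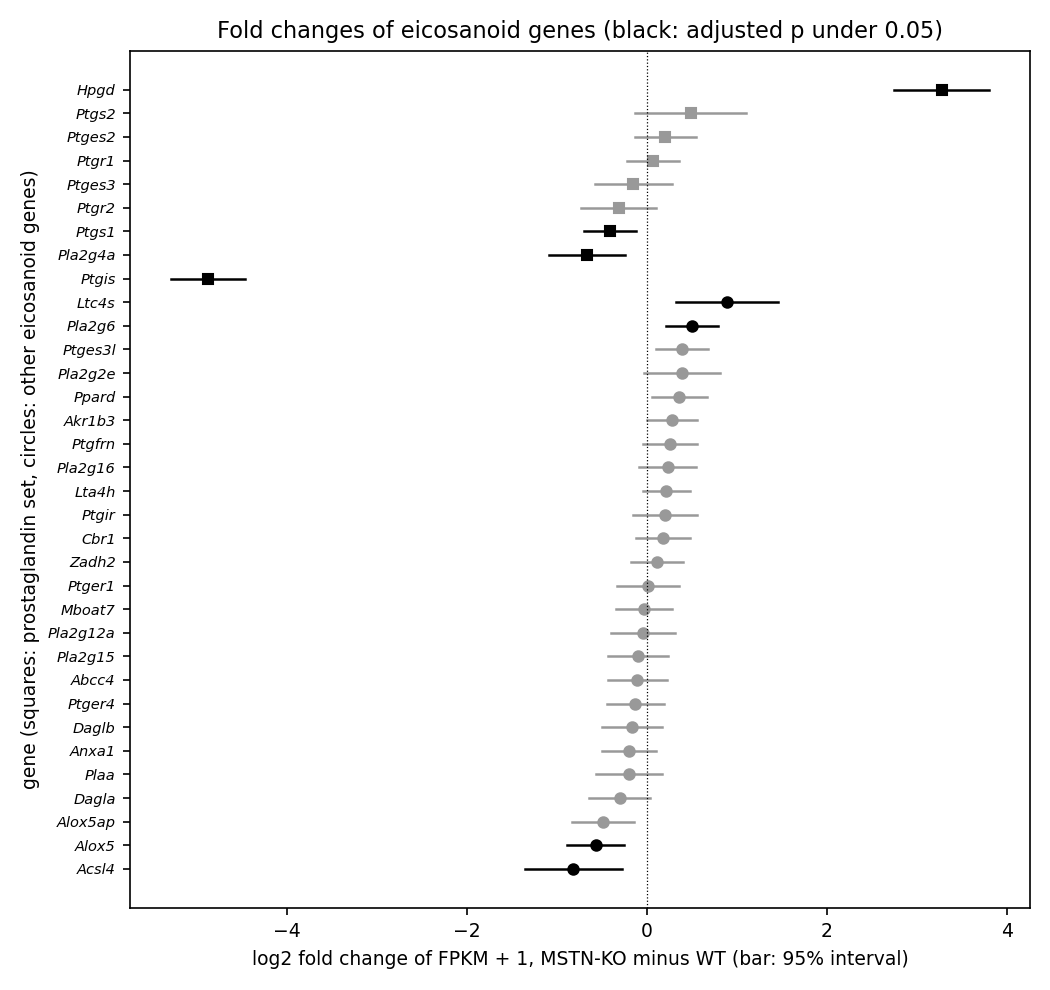
Log2 fold changes of FPKM + 1 (MSTN-KO minus WT) with 95% intervals for the 9 tested prostaglandin genes (squares) and the 25 tested genes of the other eicosanoid lists (circles), in black where the adjusted p is under 0.05. *Ptgis* at -4.87 and *Hpgd* at 3.28 stand apart, and the other genes lie between -0.81 and 0.89.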

How the data were processed

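RNA-seq of 3 WT and 3 MSTN-KO libraries was analysed, grouped by the genotype in the labels. The authors deposited FPKM values of 14548 genes, 1 library per file and with no replicates pooled. The submitters' processing notes name Bowtie 0.12.2 and the genome build mm8. The counting tool, its use of strand and a gene filter are not given in the sources used here. Symbols and positions came from GENCODE M21 on GRCm38, and no coordinates came from the files. Promoters came from RefSeq on GRCm38.p6. The model of HiSeq sequencer differs between the study's text and the series record. Annotated genes that overlap *Ptgis*, *Ptgs1*, *Ptges*, *Pla2g4a*, *Ptgr2* and *Hpgd* are not among the analysed genes, and reads from them cannot be told apart.

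Genes that reached 1 FPKM in 1 or more libraries were taken as log2(FPKM + 1) and fitted with limma 3.58.1 in R 4.3.3 (eBayes with a trend, all 6 libraries, no covariate), and Benjamini-Hochberg adjustment ran over all 10837. The DEG criteria (unadjusted p, log2 change of more than 1) are those of the study, which used iDEP without stating a pseudocount or filter. Ratios were compared by two-sided exact permutation tests. Absolute depth is unknown, so counting error cannot be given. Python 3.11.15 with scipy 1.17.1, pandas 2.3.3, numpy 2.4.6 and, for plots, matplotlib 3.10.9 ran the other steps. The fit was tested on simulated data with a log2 change of 2 in 200 genes, of which it recovered 197, with 11 false calls. Smaller changes, such as those of *Pla2g4a* and *Ptgs1*, and changes of genes at low FPKM were not simulated.

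All 10 prostaglandin genes, Mstn, tested prostanoid receptors, called genes of the other lists and the 3 tested genes most like the member with the largest change were named. Members, lists and rules were chosen with earlier results of these data known. Alternative settings used quantile normalization, scaling by percentile 75 or to a sum of 1000000, a pseudocount of 0.1, no filter, a filter on a mean of 1 FPKM, no trend, the replicate number as a block, and leaving out each library.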

Additional observations from a re-analysis of the deposited data

How the results depend on the processing

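Under the 14 alternatives, 1 prostaglandin gene was higher in each, and *Ptgis* and *Hpgd* met the DEG criteria under all of them. The number of prostaglandin genes called lower went from 3 to 1 with no filter on low values and to between 1 and 2 without single libraries. Over all tested genes, scaling to a sum of 1000000 gave 350 higher and 2367 lower in place of 952 and 971, and moved the median over all tested genes to -0.26 on the log2 scale. Without single libraries, these counts were 423 to 1184 higher and 606 to 1251 lower, with the lowest of both without WT replicate 2. The other eicosanoid genes called went from 4 to between 0 and 6, with 0 without MSTN-KO replicate 1. Under the scaling, the log2 fold change of *Ptges2* was -0.059 and that of *Ptgr1* was -0.21, which is 0.20 and 0.04 relative to the shift of all genes. *Ptges3* was at 0.043 without WT replicate 3 and 0.017 without MSTN-KO replicate 1 (range -0.36 to 0.043). *Ptgr1* was at -0.0029 without WT replicate 1 and -0.028 without MSTN-KO replicate 3 (range -0.028 to 0.13). The cause of these changes was not tested. Same-numbered libraries had correlations of deviations of -0.0153, -0.128 and -0.142, beside -0.0691 to 0.161 for libraries of unlike number. No effect shared by replicate number was seen, but these values cannot show whether the samples were paired. With the replicate block, 939 genes were higher and 1001 lower, and 2 prostaglandin genes were lower, *Ptgs1* being lost. The difference in the *Ptgs2* to *Ptgs1* ratio ranged from 0.376 to 1.32 without single libraries, that of *Ptgis* to *Ptges* from -5.09 to -4.85 and that of *Ptgs2* to *Hpgd* from -3.00 to -2.58. Exact tests on 3 against 3 libraries cannot pass 0.05, and without fragment counts the error of values under 1 FPKM, as for *Ptges*, is unknown.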

Other observations

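Of the 24 other eicosanoid genes that failed the filter on low values, *Ptgfr*, *Ephx2* and *Pla2g3* were past the threshold when no filter was used, and they were named after their values had been seen. With no filter, 720 of all 14548 genes were higher and 906 were lower in MSTN-KO cells. *Ptgfr*, the receptor of prostaglandin F2 alpha, was listed at 0 in WT replicate 1 and read 0.0340 and 0.0714 FPKM in WT replicates 2 and 3, against 0.475, 0.618 and 0.345 FPKM in the MSTN-KO replicates (limma adjusted p = 0.00653). *Ephx2*, the soluble epoxide hydrolase, read 0.0242, 0.0641 and 0.132 FPKM in WT and 0.282, 0.402 and 0.687 FPKM in MSTN-KO libraries (limma adjusted p = 0.0351). *Pla2g3*, a secreted phospholipase A2, read 0.175, 0.212 and 0.220 FPKM in WT and 0.587, 0.326 and 0.562 FPKM in MSTN-KO libraries (limma adjusted p = 0.0434). The groups did not overlap for any of the 3, which were picked for passing the threshold. Every MSTN-KO library was above every WT library for 19.3% of the genes that passed the filter. All values of the 3 stayed under 1 FPKM, where the error is unknown.

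MSTN-KO replicate 3 had the lowest value of its group for *Ptgis*, *Hpgd*, *Pla2g4a*, *Ptgs2* and *Ptgr2*, and the highest for *Ptgs1*, *Ptges*, *Ptges2* and *Ptgr1*. Its FPKM sum of 999579 was also the highest of the 6 libraries.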
